A study of Mus musculus with 21 samples.

Results

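Of 45281 probes on a mouse bead array, 243 separated an induced pluripotent stem (iPS) cell line from an embryonic stem (ES) cell line in day 16 embryoid bodies only, by the sizes used to choose them. A member was detected (detection p under 0.01) on all 3 arrays of the brighter embryoid body (EB) group. Its group means differed by at least 1 on the log2 scale between iPS EB and ES EB, which is 2-fold. They differed by less than 0.5 between the lines both in undifferentiated cells and in selected cardiomyocytes (CM). In iPS EB, 85 members were higher and 158 lower. Members were thus chosen by their group means of log2 intensity after quantile normalization over all 21 arrays, and the line differences at the 3 stages are given as descriptions without a test.

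The study profiled 7 groups of 3 arrays each, with total RNA hybridised as biotinylated cRNA. The ES line was aPIG D3, sampled at passages 7, 9 and 10, and the iPS line was aPIG TiB7.4, sampled at passages 5, 7 and 8. Both carry the αPIG construct, in which the promoter of cardiac alpha myosin heavy chain drives puromycin resistance and green fluorescent protein. Undifferentiated cells grew with LIF on mitomycin-inactivated embryonic feeder fibroblasts. Embryoid bodies, aggregates in which pluripotent cells differentiate spontaneously into many cell types, formed on a shaker and matured in spinner flasks until day 16. CM came from the same batches, received 8 µg/ml puromycin from day 9 and were collected on day 16, whereas the EB stayed untreated. The remaining group was cultured primary tail tip fibroblasts, passages 2, 3 and 4 by the labels, of 8 week old F1 mice from a 129Sv by C57BL6 cross. Each pluripotent type was 1 line, so every line difference concerns these lines and not iPS and ES cells in general. In whole EB, fewer cells of a type and less RNA per cell cannot be told apart.

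Whole EB hold derivatives of all germ layers beside cells that have kept pluripotency genes. Crystallins are the structural proteins of lens fibre cells, and Maf proteins act on many crystallin promoters. Hedgehog ligands such as Shh bind the receptor Ptch1, which releases Smo and activates Gli factors, and Ptch1 is itself a target. Placental cathepsins and many clade B serpins are expanded families in rodents, and germ line genes act in germ cell formation and meiosis. These roles are background and were not measured here.

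The 1016 probes with an EB line difference of at least 1 and the brighter EB group detected comprised 452 higher and 564 lower in iPS EB. Over all 21047 tested probes, those detected on at least 3 of the 21 arrays, such mean differences were met by 2.15% (higher) and 2.69% (lower). Of these, 403 (39.7%) stayed under the limit in undifferentiated cells and 573 (56.4%) in CM, and the 243 members (23.9%) met both. A gene name was available for 205 members, which came from 190 genes, 64 higher and 126 lower. The other 38 probes had none. Among 14 genes with several member probes were Tns3 with 3 and Cryba1, Klf4, Tfap2c, Sox17 and Shh with 2 each. Just inside the threshold stood F8a at 1.0013 and Crygd at -1.0001, and just outside stood Chst15 at 0.9931 and H2-T23 at -0.9962. Had each array instead been scaled to 1 shared median, the split would have been 262 higher and 94 lower. That scaling put the median of all tested probes 0.186 higher in iPS EB on the log2 scale, against 0.013 here, so the balance of higher and lower members rests on the scaling. Without ES EB replicate 1 the rule found 157 higher and 251 lower probes, and without iPS EB replicate 2 it found 133 and 214.

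Promoters of 5 lens genes among the lower members are shown because the lens genes form the largest listed group in either direction. That list was drawn up after the values were seen. The stretches are 120 bases of RefSeq promoter in the assembly GRCm38.p6, written 5′ to 3′ on the gene's strand. Capitals mark TGCTGA, the half-site of Maf proteins, or its reverse complement.
Cryba1, chr11:77725294-77725413, minus strand: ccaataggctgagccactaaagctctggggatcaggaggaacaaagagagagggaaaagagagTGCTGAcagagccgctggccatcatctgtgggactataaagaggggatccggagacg
Crybb1, chr5:112255700-112255819, plus strand: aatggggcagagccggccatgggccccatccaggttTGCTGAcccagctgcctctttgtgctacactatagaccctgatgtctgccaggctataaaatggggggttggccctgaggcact
Crybb3, chr5:113081585-113081704, minus strand: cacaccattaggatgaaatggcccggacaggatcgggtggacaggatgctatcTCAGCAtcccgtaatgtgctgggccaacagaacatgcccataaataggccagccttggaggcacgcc
Cryaa, chr17:31677811-31677930, plus strand: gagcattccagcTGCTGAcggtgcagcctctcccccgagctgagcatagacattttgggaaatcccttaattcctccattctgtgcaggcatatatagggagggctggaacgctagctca
Mip, chr10:128225660-128225779, plus strand: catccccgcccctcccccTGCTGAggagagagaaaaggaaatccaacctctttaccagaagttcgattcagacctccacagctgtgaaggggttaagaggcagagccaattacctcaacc
TGCTGA, searched on both strands of the 250 bases before the start, was present in 9 of the 11 lens member genes (81.8%) and in 4871 of all 27025 promoters (18%). The genes without it were Crygb and Crygd. Crystallin genes of a class share ancestry, and a match describes letters only. The pluripotency gene Nanog is shown as a single example with TTTGCAT in capitals, 7 bases of the octamer motif that Oct proteins bind. It was present in 1 of 2 pluripotency member genes with a promoter. Among lower member genes 4 of 100 (4%) held it, close to the 4.65% of all promoters. The Gli core GACCACC and the TATA box TATAAA were also searched and are not shown.
Nanog, chr6:122707395-122707514, plus strand: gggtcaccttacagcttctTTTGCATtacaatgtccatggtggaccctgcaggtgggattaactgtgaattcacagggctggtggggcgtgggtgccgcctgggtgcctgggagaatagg

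Lens genes supplied the largest differences. Of 24 tested lens probes, 12 probes of 11 genes were members, all lower in iPS EB. The list's median EB difference was -1.26 against 0.01 over all tested probes. The list was drawn up after the values were seen, so these numbers are a description and support nothing. The same list had median line differences of -0.07 in undifferentiated cells and 0.03 in CM. Cryba1, which encodes beta-A crystallins, read 11.4, 10.46 and 10.34 on the 3 ES EB arrays and 5.01, 5.98 and 5.93 on the iPS EB arrays. Its lowest ES EB array lay far above its highest iPS EB array, a 34.1-fold difference of the means (log2 difference -5.09). A second Cryba1 probe read 10.2, 9.16 and 9.32 against 4.97, 5.16 and 5.21, which is 21.8-fold lower in iPS EB. Neither probe was detected on any CM or fibroblast array.

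Other crystallins lay below detection in iPS EB, so only a lower bound of the difference can be given. For these the mean of the bright group was divided by a floor for the dim group, which on each array is the lowest signal of any detected probe, or that of the dim probe where it is higher. Cryba2 read 8.66, 7.09 and 6.82 in ES EB and was detected on no iPS EB array, at least 5.79-fold lower. Crybb3 was at least 4.05-fold, Crygs at least 4.01-fold, Crybb1 at least 3.8-fold and Crygb at least 3.03-fold lower in iPS EB. Cryaa, the small heat shock protein of the lens, read 6.73, 6.47 and 6.02 in ES EB and was at least 2.68-fold lower. Mip, the water channel of lens fibres, read 7.16, 6.12 and 5.94 against 4.83, 5.06 and 4.91, with 1 iPS EB array detected. Cryga, Crygb, Crygc and Crygd lie next to each other on chromosome 1. Crystallin genes are alike in sequence, and a probe may have bound transcripts of several of them.

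The lens signal was uneven among ES EB. All 12 member probes were highest on ES EB replicate 1, which was the highest of its group for 39.9% of all tested probes. The summed linear intensity of the 24 probes ranged from 3375 to 6814 over ES EB arrays and from 993 to 1096 over iPS EB arrays, close to the 989 to 1068 of undifferentiated ES cells. Its 2776 to 3052 in ES CM came with Cryab on the list, a crystallin that heart muscle also makes. Several lens regulators and structural genes, among them Pitx3, Foxe3, Pax6, Maf, Bfsp2 and Crybb2, were detected on no EB array with any probe. Among tested lens probes that were no members, Cryba4 differed by -2.53 in EB but also by -1.11 in CM.

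**Figure D1:**
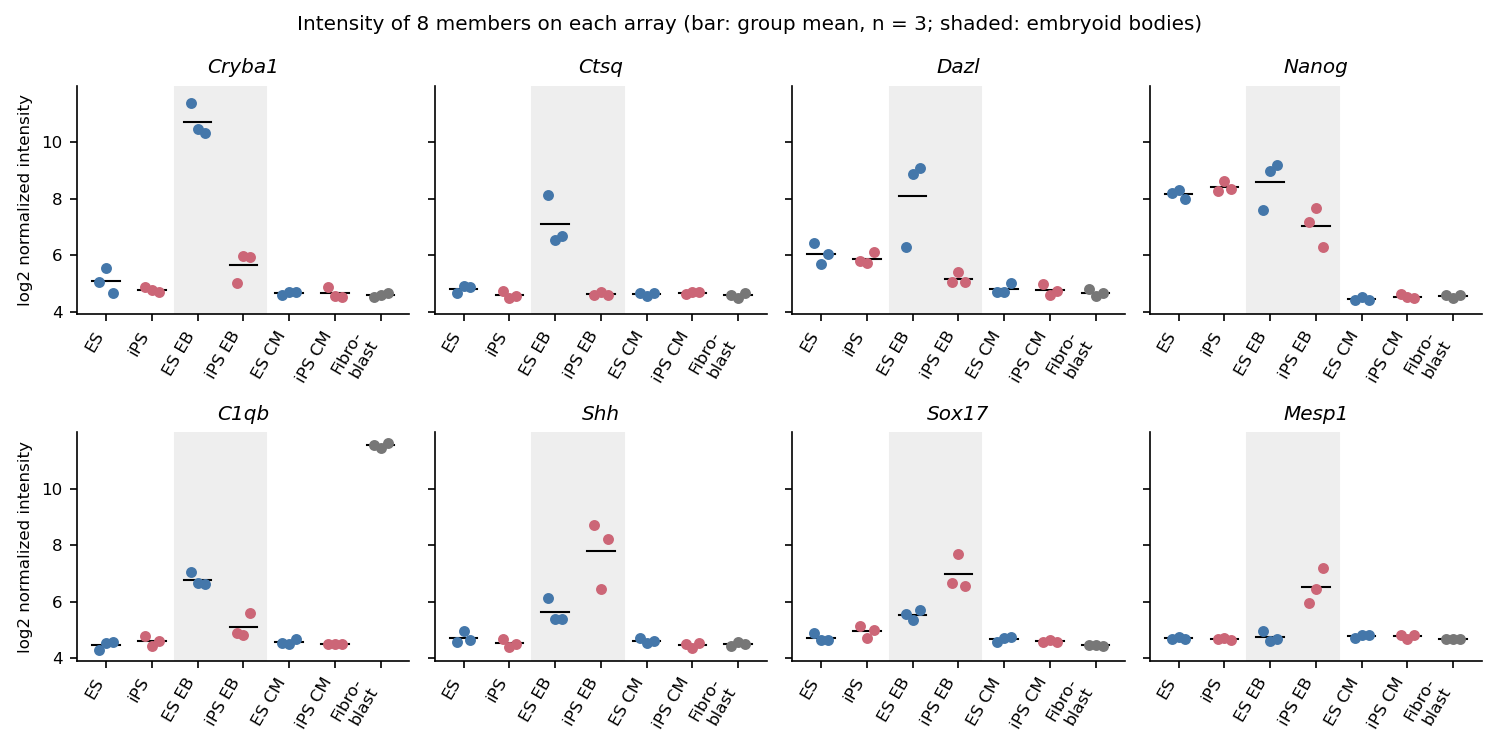
Log2 normalized intensity of 8 members on each of the 21 arrays, by group, with the group mean as a bar and the EB groups shaded. Cryba1 and Ctsq stand above the other groups in ES EB only, Shh, Sox17 and Mesp1 in iPS EB most, and C1qb in fibroblasts above ES EB.

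Of 9 tested probes of placental cathepsins, which are proteases, and of related clade B serpins, which are mostly protease inhibitors, 5 were members. These 2 cathepsins and 3 serpins were all lower in iPS EB. The median of the list, which was drawn up after the values were seen, was -1.23. Of the 19 genes on the list 9, among them Cts3, Cts7, Cts8 and Ctsm, were detected on no EB array with any probe. Ctsq, a placental cathepsin, read 8.13, 6.54 and 6.7 in ES EB and was detected on no iPS EB array, at least 4.39-fold lower. Serpinb9f read 7.93, 5.91 and 6.04 and was at least 3.11-fold lower. Both were highest on ES EB replicate 1. Ctsr and Serpinb9g were at least 2.1-fold and 1.86-fold lower. Serpinb6c read 5.67, 6.89 and 6.71 against 5.35, 5.8 and 5.01, and its groups overlapped. Ctsj, another placental cathepsin, differed by -4.81 in EB, but its CM difference of -0.62 passed the limit. Tfap2c, a transcription factor of trophoblast and of primordial germ cells, had 2 member probes, with 9.29, 9.56 and 9.64 in ES EB against 7.71, 8.33 and 7.67 in iPS EB for one of them. Its groups did not overlap. The trophoblast list as a whole, Tfap2c included, summed to 1359 to 1462 in ES EB and 495 to 625 in iPS EB. Undifferentiated cells summed to 1486 to 2062 (ES) and 1410 to 1729 (iPS), so neither EB group lay above them. The list went both ways. Cdx2 differed by 0.68 and Hand1, detected on 1 iPS EB array, by 0.46, against -2.68 and -0.79 for Prl2c2 and -0.25 for Plac1. Ascl2, Elf5, Esx1 and Tpbpa were detected on no EB array with any probe.

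Germ line genes gave 9 members among 22 tested probes, again all lower in iPS EB, with a list median of -1.03. This list, too, was drawn up after the values were seen. Dazl, an RNA-binding protein of germ cells, read 6.3, 8.87 and 9.09 in ES EB and 5.04, 5.4 and 5.05 in iPS EB. Replicate 1 was the low ES EB array here, yet the groups did not overlap, and the means differed 7.58-fold. Tex19.1, which restrains mobile elements in germ cells, read 9.39, 9.53 and 9.35 against 7.08, 7.21 and 6.83, a 5.21-fold difference with all arrays of a group close together. Rhox13, an X-linked homeobox gene, was at least 3.02-fold lower in iPS EB. Nanos3 of primordial germ cells was at least 2.14-fold lower. Tex11 and Terb2, which act in meiosis, were at least 1.82-fold and 1.57-fold lower. Ooep, a gene of the egg and early embryo, and Tdrd12 of the piRNA pathway had overlapping groups. Ddx4, Sycp1, Sycp3 and Tdrd1, later germ cell and meiosis markers, were detected on no EB array with any probe. A shorter germ cell list among the first 23 had 5 tested probes, of which Dazl was the 1 member. Its median line difference was -2.9 in EB and already -0.9 in undifferentiated cells. Rhox9 differed by -3.7 in EB and -0.9 in undifferentiated cells, Rhox5 by -2.9 and -1.13, and Rhox6 by -2.33 and -0.92. Piwil2 differed by -0.47 and -0.09. On the longer list Smc1b, at -2.38 and -1.16, and Tex14, at -2.06 and -2.11, also differed before differentiation.

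Pluripotency genes gave 5 member probes among 32 tested, of Nanog, Klf4, Dppa2 and Dppa4, all lower in iPS EB. Other probes of the list went both ways, with 3 at least 1 higher in iPS EB and 8, members included, at least 1 lower. Lin28a, an RNA-binding protein of pluripotent cells, differed by 1.88, 1.09 and 0.07 with its 3 probes, and Sall4, a zinc finger factor, by 1.48, 0.65 and 0.05. Lin28a at 0.61 and 0.72 and Sall4 at 1.53 differed already in undifferentiated cells with the probes past the threshold. Zfp42, a marker of undifferentiated cells, differed by -3.62 in EB and by -1.49 in undifferentiated cells. Nanog, a transcription factor of the pluripotency network, read 7.62, 9 and 9.19 in ES EB and 7.17, 7.67 and 6.31 in iPS EB. ES EB replicate 1 lay below iPS EB replicate 2, so the groups overlapped. Dppa4, which binds DNA in pluripotent cells, read 11.24, 11.39 and 11.39 against 10.25, 10.89 and 9.39, without overlap. The 5 probes were each lowest on ES EB replicate 1, and in iPS EB each was highest on replicate 2 and lowest on replicate 3, where 36% and 32.7% of all tested probes had these places. The whole list summed to 34037 to 52346 in ES EB and 16874 to 33793 in iPS EB, while undifferentiated cells lay between 46188 and 53682. Its median EB difference was -0.7, and Pou5f1, at -0.68 and -0.73, stayed under the threshold. Zfp296, Klf5 and Tbx3, further genes of pluripotent cells and on no list, were lower in iPS EB by -1.67, -1.57 and -1.02 on the log2 scale. A further Zfp296 probe differed by -1.55 in EB and already by -0.87 in undifferentiated cells. The other tested Tbx3 probes stayed under the threshold, at -0.73, -0.95 and -0.92 in EB. Of 11 tested probes of the Pramel list, also drawn up after the values were seen, 3 were members. Pramel30, of a family active in germ cells and early embryos, read 5, 7.89 and 7.79 in ES EB and was at least 3.75-fold lower in iPS EB.

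Of 17 tested probes of the macrophage list 4 were members, all lower in iPS EB, and the list median was -0.18. Several defining macrophage markers lay near or below detection in EB and differed little: Csf1r by 0.03 and -0.18, Adgre1 by -0.13, -0.13 and 0.05, and Fcer1g by 0.35. Laptm5, a lysosomal membrane protein of blood cells, was the brightest member, at 8.11, 8.68 and 8.85 in ES EB against 6.8, 7.72 and 7.33 in iPS EB, without overlap. It was as bright in undifferentiated cells, with means of 8.69 (ES) and 8.77 (iPS). C1qb, a chain of complement C1q, read 7.05, 6.66 and 6.62 in ES EB and 4.89, 4.82 and 5.61 in iPS EB, where 1 of 3 arrays detected it. C1qc read 6.43, 6.04 and 5.98 against 4.66, 4.67 and 5.24, also with 1 of 3 detected. Lyz2, a lysozyme of myeloid cells, read 6.63, 6.26 and 6.46 against 4.82, 4.8 and 5.11. None of these groups overlapped. The chemokine Ccl4 read 7.18, 7.43 and 7.3 against 4.72, 5.15 and 5.57, and its neighbour Ccl3 was lower by -1.02 on the log2 scale. The list, Laptm5 included, summed to 1149 to 1281 in ES EB and 527 to 668 in iPS EB, against 749 to 932 in undifferentiated cells, while Mpo and Ptprc were detected on no EB array with any probe. In the fibroblast arrays the list summed to 35229 to 43709, so the fibroblast RNA held macrophage transcripts beside its collagen list, which summed to 46564 to 58787. Esam, an adhesion molecule and the 1 member among 14 tested endothelium probes, read 7.03, 7.3 and 7.14 against 5.29, 5.09 and 5.41, without overlap. That list went both ways, with 1 probe at least 1 higher in iPS EB (Flt1, 2.7) and 4 at least 1 lower. Its median was -0.68 in EB and already -0.6 in undifferentiated cells. Mcm2, of the replication helicase and the 1 member among 17 cell cycle probes, read 9.83, 10.12 and 10.07 against 8.6, 8.88 and 8.47, also without overlap. The cell cycle list had a median of -0.33, with 1 probe at least 1 higher (Plk1, 3.48) and 2 at least 1 lower. Thy1, a surface protein of mesenchyme and the 1 member among 31 mesenchyme probes, read 8.4, 8.27 and 8.22 against 6.77, 7.22 and 7.6, again without overlap. The mesenchyme list had a median of -0.14. The part of other cell types in these differences was not tested.

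The members higher in iPS EB included the Hedgehog ligand itself. Of 22 tested Hedgehog pathway probes 5 were members, all higher in iPS EB, and the list, drawn up after the values were seen, had a median of 0.3. Shh read 8.72, 6.45 and 8.24 in iPS EB and 6.15, 5.39 and 5.38 in ES EB, a 4.47-fold difference, and its second probe read 7.12, 5.17 and 5.93 against 4.92, 4.75 and 4.99. Neither probe's groups overlapped. The receptor Ptch1 read 7.95, 7.44 and 7.87 against 6.72, 6.14 and 6.32, 2.57-fold higher without overlap. Nkx2-2, a homeobox gene of ventral neural tube and pancreas, read 7.4, 5.6 and 6.09 against 5.1, 4.62 and 4.95. Nkx6-1, of the same tissues, read 7.43, 6.01 and 7.57 against 6.07, 5.52 and 5.25, with overlap. All 5 probes were lowest on iPS EB replicate 2, as were 34.1% of all tested probes. Among the other tested probes, Gli2 differed by 0.65 and 0.46, Smo by 0.24 to 0.68, and Foxa2 by 1.71 with a difference of 0.8 already in undifferentiated cells. Gli3 was bright and alike in both lines, at means of 8.57 and 8.58 (difference -0.01). Hhip, a further target of the pathway, differed by -0.11, Boc by -0.06, Hhat by -0.04 to 0.05, and Sufu, an inhibitor, by 0.84 and -0.09. Gli1, Ihh and Dhh were detected on no EB array with any probe.

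The visceral endoderm and fetal liver list had 3 members among 25 tested probes, of Sox17 and Foxa1, all higher in iPS EB, and a median of 0.23. Sox17, a transcription factor of endoderm, read 6.67, 7.69 and 6.55 in iPS EB and 5.57, 5.35 and 5.72 in ES EB, and its second probe read 6.77, 7.67 and 6.59 against 5.66, 5.71 and 5.75. Foxa1, an endoderm factor that opens chromatin, read 8.45, 7.43 and 7.9 against 6.04, 6.48 and 6.41. Hhex, of anterior endoderm and liver and on no list, read 7.63, 8.39 and 7.5 against 6.44, 6.36 and 6.26. None of these groups overlapped. Elsewhere on the list Afp differed by 0.85, Ttr by -0.02 and Hnf4a by 0.08. Dab2, an endocytic adaptor of visceral endoderm, went the other way with -0.95, -1.12 and -0.3, as did Amn, a receptor subunit there, with -0.77, while Alb, Apoa4 and Fgb were detected on no EB array with any probe. For mesoderm no list was drawn up. Mesp1, a factor of early mesoderm, read 5.94, 6.47 and 7.21 in iPS EB and 4.97, 4.62 and 4.69 in ES EB, where 1 of 3 arrays detected it. Aplnr, the apelin receptor of mesoderm and vessels, read 6.37, 6.35 and 7.61 against 5.33, 4.92 and 4.88. No cardiomyocyte probe was a member, and the 32 tested summed to 8775 to 18348 in ES EB, 7594 to 16676 in iPS EB and 119474 to 143362 in CM.

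Of 16 tested probes of the plasma protein list 5 were members, higher in iPS EB by mean but with overlapping groups in every case. The list, drawn up after the values were seen, had a median of 0.57. The brightest probe of the list, Ttr, had means of 8.9 and 8.92 (difference -0.02), and Apoa1 at -0.26, Ahsg at -0.02 and Apob at 0.06 were not higher by the threshold either. Ambp, the precursor of a plasma protease inhibitor, read 5.86, 6.3 and 8.79 in iPS EB and 7.15, 4.79 and 4.66 in ES EB. Serpina1b, an alpha-1-antitrypsin, read 5.77, 6.29 and 7.92 against 6.69, 4.48 and 4.53. ES EB replicate 1 thus lay above iPS EB replicates 1 and 2 for both genes. All 5 probes were highest on that ES EB array, and 4 were highest on iPS EB replicate 3, the highest of its group for 32.5% of all tested probes. Serpina1b and Serpina1d are near-identical neighbours, and their probes count as uncertain between them.

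Of the imprinted genes, Dlk1 and Phlda2 were members. Dlk1, a Notch-related surface protein, read 9.72, 9.68 and 10.52 in iPS EB and 8.88, 9.01 and 9 in ES EB. Phlda2, which restrains placental growth, read 7.78, 8.17 and 9.2 against 7.6, 6.46 and 6.08. The groups of neither gene overlapped. The imprinted list had 19 tested probes with a median EB difference of 0.76, and Igf2r at 1.33 and 1.34 also differed by 1.16 and 1.31 in CM. The largest difference on the list went the other way: Rian, a maternally expressed noncoding RNA next to Dlk1, differed by -2.59, with -1.3 already in undifferentiated cells, and was detected on all 3 ES EB and no iPS EB arrays. Meg3 of the same cluster differed by -0.64. Ddit4, an inhibitor of mTOR signalling, read 8.8, 8.36 and 8.64 against 7.04, 7.11 and 7.14. The cell cycle inhibitor Cdkn1a was higher by 1.01 and 1 with its 2 member probes, and by 0.81 with a further probe under the threshold. Pisd-ps2, a pseudogene whose probe may bind transcripts of Pisd, read 8.58, 9.36 and 8.95 against 7.27, 5.85 and 6.23. Samd3 read 7.92, 7.76 and 7.87 against 5.95, 4.91 and 5.2. Foxd4, a forkhead factor, read 7.3, 6.05 and 7.2 against 5.24, 4.58 and 4.65. Pga5, a pepsinogen, read 9.8, 11 and 8.26 against 7.37, 8.29 and 8.34, with overlap.

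**Figure D2:**
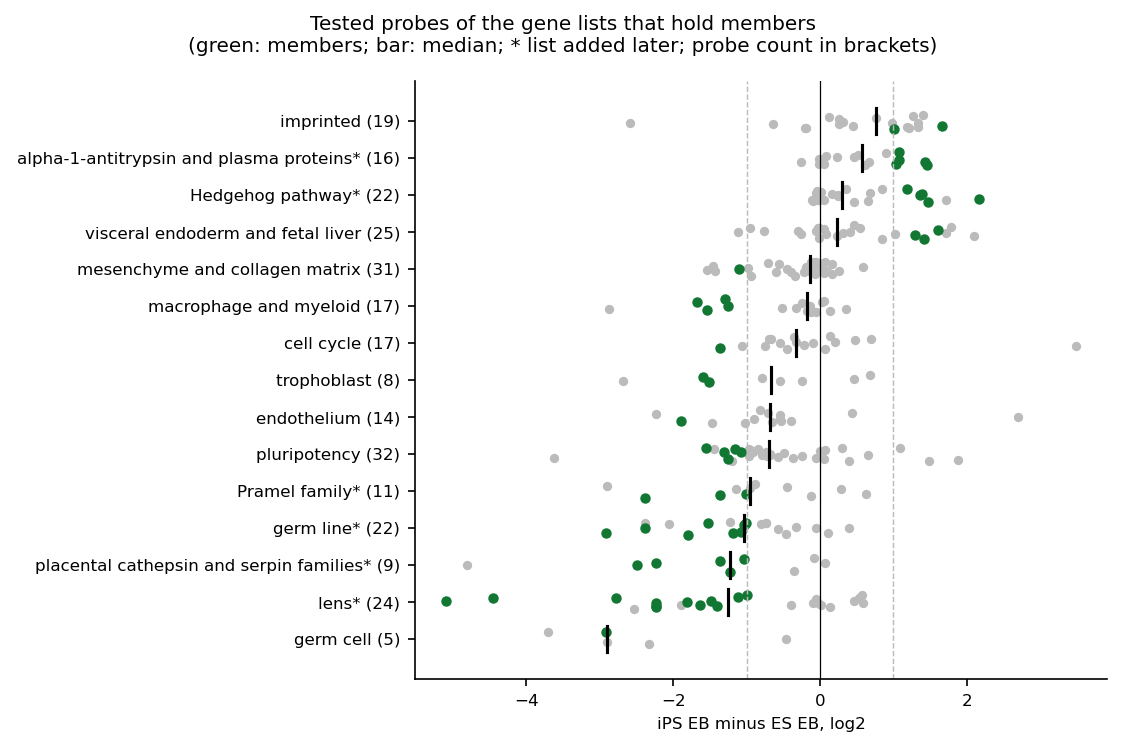
Difference between iPS EB and ES EB on the log2 scale for every tested probe of the gene lists that hold members, with members in green, the list median as a bar and dashed lines at the threshold of 1. The lens list has the members farthest from 0, and its median is -1.26. The 6 lists marked with a star were drawn up after the values were seen.

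Several lists held none of the 243 members among the 21047 tested probes, and nothing is read from that for lists of their size. The cardiomyocyte, neural, epithelial, smooth muscle, skeletal muscle, erythroid and Hox lists held 0 members. So did those for cholesterol synthesis, Wnt, BMP and TGF-beta signalling, hypoxia and interferon response, parietal endoderm and sex-linked genes. Holding 0 members does not mean that a list was alike in EB. In the epithelial and the smooth muscle list, 3 probes each were at least 1 higher in iPS EB and 0 at least 1 lower. These also differed between the lines in undifferentiated cells. All 3 ES EB arrays lay above all 3 iPS EB arrays for 139 of the 158 lower members, and the reverse held for 75 of the 85 higher members. Over all tested probes those orders were met by 18% and 19.7%. The rule used this contrast, and nothing is read from these counts.

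The spread of members among EB arrays is a description, because the rule chose members by the values of these arrays. The rule also required detection in the brighter EB group, which tested probes in general need not meet. The median SD on the log2 scale was 0.344 (ES EB) and 0.226 (iPS EB) for the lower members and 0.252 and 0.328 for the higher ones, against 0.139 and 0.147 for all tested probes. ES EB replicate 1 was the lowest array of its group for 108 of the 158 lower members, where 35.6% of all tested probes had it lowest, and the highest for 62 of the 85 higher members, where 39.9% had it highest. On this array the lower members thus stood nearer to iPS EB, and all lens members and 4 of the 5 cathepsin and serpin members, highest there, were among the exceptions. iPS EB replicate 2 was the highest of its group for 101 of the lower members, against 36% of all tested probes.

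**Figure D3:**
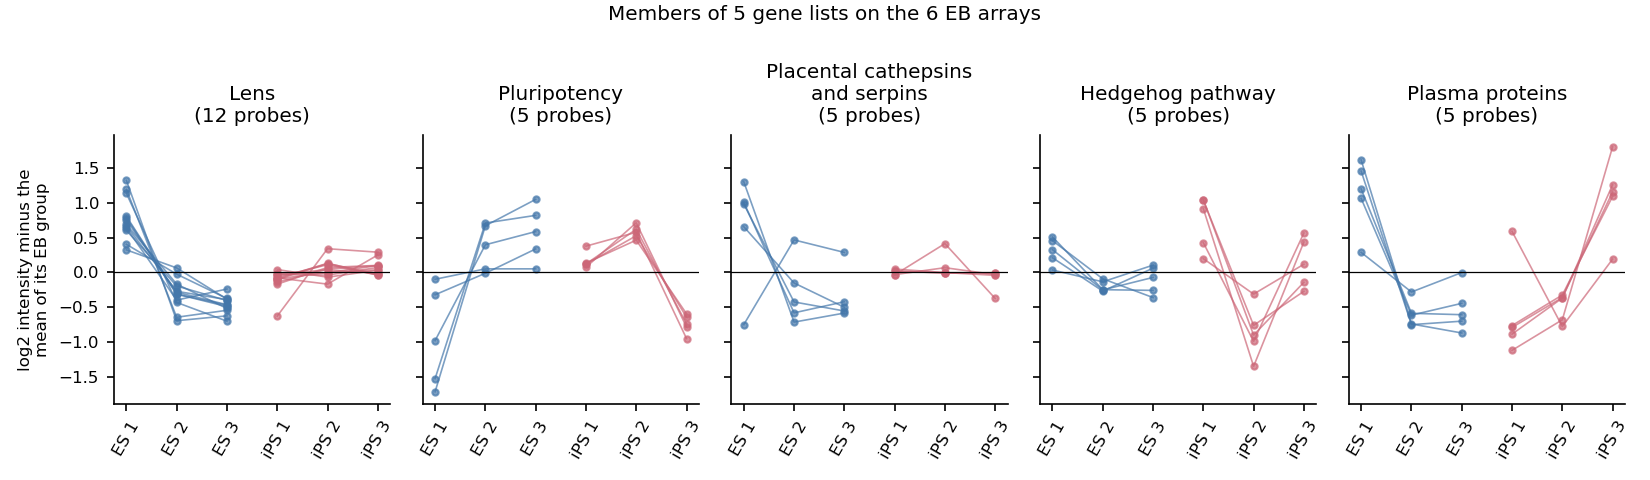
Log2 intensity of the members of 5 gene lists on the 6 EB arrays, relative to the mean of the probe's own EB group, with lines joining the values of 1 probe. Lens and plasma protein probes are highest and pluripotency probes lowest on ES EB replicate 1, and Hedgehog probes are lowest on iPS EB replicate 2.

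Members were also chosen again without 1 replicate number of both lines and read in the EB arrays left out. A number joins arrays of the lines by label only: replicate 1 was passage 7 in ES EB and passage 5 in iPS EB. Chosen without replicate 3, 121 of 125 lower and 85 of 87 higher probes kept their direction in the pair left out, with medians of -1.33 and 1.04. Chosen without replicate 2, 163 of 166 and 90 of 95 did, with medians of -1.09 and 0.83. Chosen without replicate 1, 223 of 251 and 135 of 170 did, with medians of -0.63 and 0.46. The medians were smallest in size with replicate number 1, where the most probes were chosen, and the reason was not tested. The limits outside EB did not hold for all of them in the pair left out, which is 1 array a line: 89 of 125 lower and 53 of 87 higher probes stayed under both with replicate 3, 119 of 166 and 62 of 95 with replicate 2, and 135 of 251 and 107 of 170 with replicate 1. Over all tested probes these limits were met in a single pair by 61.9%, 63.8% and 61%. The whole pattern, at least 1 in EB and under both limits elsewhere, was met by 65 lower and 27 higher probes with replicate 3, 74 and 22 with replicate 2, and 35 and 24 with replicate 1. A difference of at least 1 in the same direction in the EB pair left out was also counted. With replicate 3 it was met by 85 of 125 lower and 45 of 87 higher probes, against 4.45% and 4.02% of all tested probes. With replicate 2 it was met by 101 of 166 and 41 of 95, against 3.38% and 3.08%. With replicate 1 it was met by 77 of 251 and 33 of 170, against 2.52% and 2.42%. The shares of all tested probes that kept a direction or met the whole pattern were not counted. Nothing is read from those counts.

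Whether a line difference came with a change in the ES or in the iPS line was described by size, with 1 on the log2 scale as the limit. Of the 158 lower members, 50 were at least 1 higher in ES EB than in ES cells with the iPS line within the limit, as were 2.04% of all tested probes. In 60 others iPS EB stood at least 1 below iPS cells with the ES line within the limit (2.16% of all). Neither line passed the limit in 44, as in 88.9% of all. Lens genes belonged largely to the former kind: Cryba1 was 5.65 higher in ES EB than in ES cells and 0.86 higher in iPS EB than in iPS cells. Klf4 was of the latter kind, with -0.74 from ES cells to ES EB and -2.04 from iPS cells to iPS EB for its leading probe. Of the 85 higher members, 41 were at least 1 higher in EB in the iPS line only (2.32% of all), 10 in both lines (2.31% of all) and 9 at least 1 lower in the ES line only (1.24% of all). Shh stood 3.27 higher in iPS EB than in iPS cells and 0.92 higher in ES EB than in ES cells. Dlk1 stood higher in EB of both lines, by 4.54 and 3.28. Ddit4 differed by -1.5 from ES cells to their EB and by -0.21 from iPS cells to theirs. These changes share EB arrays with the rule, and the signs of their difference follow from it.

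**Figure D4:**
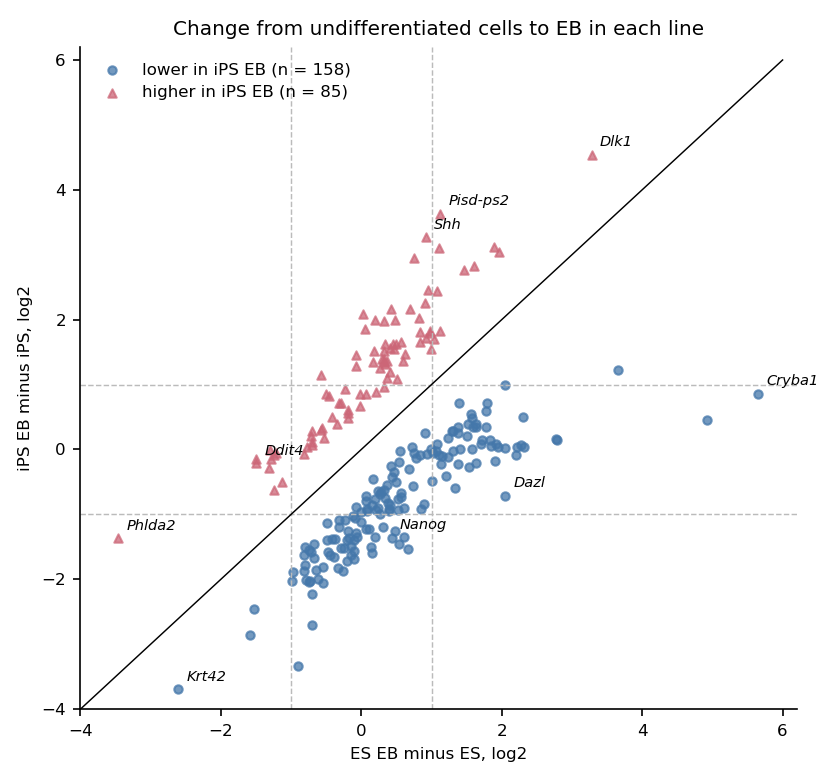
Change from undifferentiated cells to EB on the log2 scale in ES cultures (x axis) and iPS cultures (y axis) for the 243 members, with dashed lines at 1 and -1 and a diagonal of equal change. Cryba1 lies far to the right at 5.65 and 0.86, and Dlk1 high in both lines at 3.28 and 4.54.

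At the other stages many members were near or below detection. In CM 91 of the 158 lower and 32 of the 85 higher members were detected on no array, and 24 and 21 were detected neither in undifferentiated cells nor in CM. For these the small line differences outside EB are those of signals below detection. Where the lines differed within the limits, the sign often matched that in EB. Of the lower members 101 (63.9%) were also lower in undifferentiated iPS cells, against 46.9% of the 15078 tested probes under both limits, and 96 (60.8%) in CM, against 50.3%. Of the higher members 58 (68.2%) were higher in undifferentiated iPS cells, against 53.1% of those probes, and 59 (69.4%) in iPS CM, against 49.7%.

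The stages were compared by the mean over both lines, with limma at a Benjamini-Hochberg adjusted p under 0.05 over all tested probes. Where EB arrays enter, the counts and values are a description and support nothing. The rule admitted members through the EB group in which they were bright, and a change that took place in 1 line alone still enters the mean over lines. From undifferentiated cells to EB, 111 members were called higher, where 24.1% of all tested probes were, and 79 lower, against 24.4%. With median scaling 118 were called higher and 30 lower. Dlk1 differed by 3.91 and Cryba1 by 3.25 on the log2 scale, the latter from 5.65 in the ES and 0.86 in the iPS line. Krt42, a keratin, differed by -3.15 and Phlda2 by -2.41. From EB to CM, 198 members were called lower, against 36.9% of all tested probes, and 32 higher, against 34.3%. Detection on all arrays of the brighter EB group was required of each member and a signal in CM was not, so many falls from EB to CM are built into the choice. Drug exposure, selection and cell composition differ between EB and CM and cannot be told apart. Dppa4 was at least 48.2-fold and Ooep at least 47.4-fold lower in CM than in EB, and Dlk1 at least 19.7-fold and Pga5 at least 12.8-fold. Aldh1l2, a mitochondrial folate enzyme, was higher by 3.11 and Pxylp1 by 2.67.

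Between undifferentiated cells and CM, which uses no EB array, 131 members were called lower in CM, against 38.1% of all tested probes, and 41 higher, against 37%. The limit on the line difference in CM is met more easily by probes that are dim there, and how far this moved the counts was not tested. The lower members supplied 103 of these falls, which is 65.2% of the 158 lower members. The higher members supplied 28, which is 32.9% of the 85 higher members. Dppa4 was at least 78.5-fold, Ooep at least 61.3-fold and Tex19.1 at least 36.4-fold lower in CM. Aldh1l2 rose by 4.1 with a standard error of 0.21 (limma adjusted p = 1.2e-12). Cryba1 did not pass the test in this comparison with either probe, at -0.28 and -0.03.

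Fibroblasts, whose arrays the rule did not use, were averaged to 1 sample because the design text names them technical replicates. Against undifferentiated cells, 61 members were called higher in fibroblasts (27.5% of all tested probes) and 87 lower (29.6%). Of the lower members 38 (24.1%) were called higher and 70 (44.3%) lower. Among members called higher, genes of macrophages had the largest values: Ccl4 was higher by 7.93, Lyz2 by 7.61, and C1qb at least 83.8-fold. Dppa4 was at least 84.5-fold lower in fibroblasts. The calls concern this fibroblast RNA. As 1 sample has no spread, the fit took its spread from the stem cell groups, and the calls do not measure variation among fibroblast cultures.

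**Figure D5:**
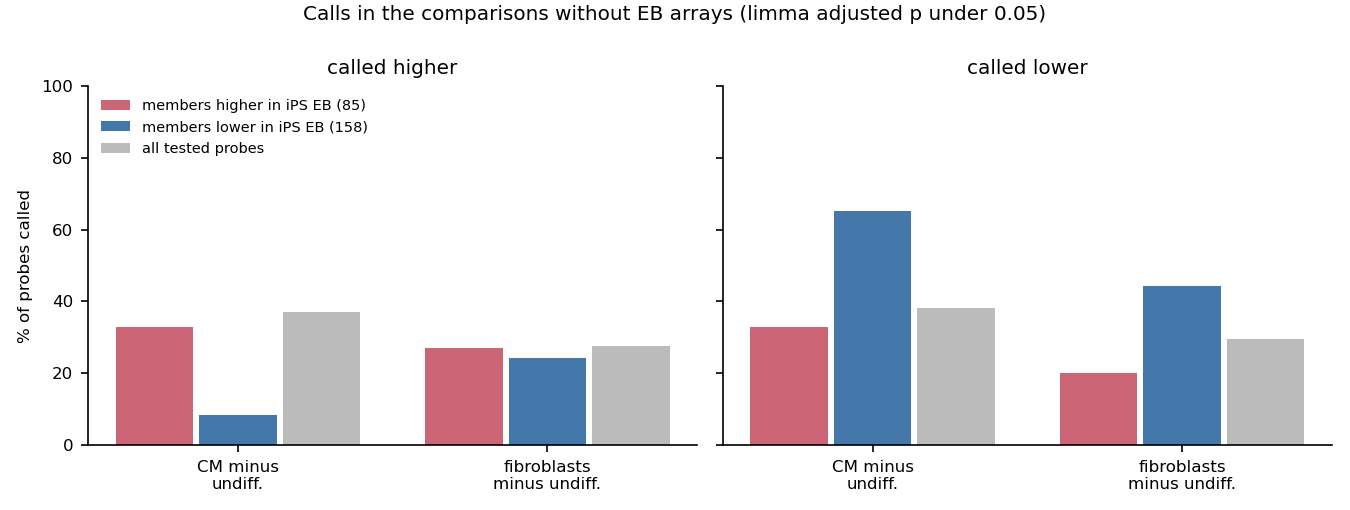
Percent of probes called higher (left) and lower (right) in the 2 comparisons that use no EB array, for members higher in iPS EB, members lower in iPS EB and all tested probes. The tallest bar is the lower members called lower in CM against undifferentiated cells, at 65.2%.

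Other probes of the member genes gave a further reading. For 72 of the 190 genes another tested probe was on the array, 111 probes in all. The sign in EB was the same for 101 and opposite for 10, and 92 stayed under 1. The 19 probes of at least 1 had the same sign, and all 19 also differed between the lines at another stage by 0.5 or more. A detected probe of at least 1 under both limits would itself be a member, so the latter followed from the rule. By these probes the differences of their genes were not restricted to EB, and nothing is read from their number. Among them a further Lyz2 probe differed by -2.88 in EB and -0.83 in CM, and a further Crygd probe by -1.9 in EB and -0.95 in undifferentiated cells. Member genes were neighbours in several places: Serpinb9f, Serpinb9g and Serpinb6c on chromosome 13, Ctsq and Ctsr also there, C1qb and C1qc on chromosome 4, Dppa2 and Dppa4 on chromosome 16, and Pramel30, Pramel31 and Pramel13 on chromosome 4. Probes of such families, and of the histone H4 genes H4f16 and H4c8, may bind transcripts of relatives. The intensities were not background corrected, so log2 differences understate those of dim probes.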

How the data were processed

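Total RNA was measured on 21 bead arrays in 7 groups named by the labels. In the non-normalized table deposited by the authors, per the file headers, each probe has an average signal intensity (linear, raw) and a detection p-value on every array. The authors' normalized table holds quantile normalized intensity and matched the values used here, with all 45281 rows found by value. Its identifiers pair differently: 5 of 12 detected cardiomyocyte and 6 of 14 pluripotency probes went in the marker direction, against 30 of 31 and 29 of 29 for the non-normalized table, whose identifiers are used with the platform annotation. Software for both tables: not given in the sources used here.

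Intensities were quantile normalized over 21 arrays and taken to log2, without background correction, in R 4.3.3 with limma 3.58.1. The 4 tests used one limma fit (lmFit, eBayes) of 19 samples and 12 residual degrees of freedom over 21047 probes detected on at least 3 arrays, and were checked on simulated data. The 2 comparisons with EB arrays share them with the rule and are descriptions. Detected probes per stem cell array ranged from 13231 to 17866, and the number of arrays limits the precision. Named are the 12 members with the largest difference in each direction, members of the gene lists, the 4 highest and lowest calls per comparison, members at the thresholds and genes with several member probes. Further genes were chosen after their values were seen. The members and the 23 lists were chosen with earlier results of these data known, and 6 lists were added after the values were seen. Sequences are from RefSeq.

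Within a line, EB and CM came from one batch and same-numbered samples share a passage by the labels. Samples with 1 number deviated from group means with correlations from -0.182 to 0.225 over all probes. Alternatives covered background correction, scaling, detection, thresholds, the fit, the block and each array left out.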

Additional observations from a re-analysis of the deposited data

How the results depend on the processing

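The counts of members moved most with the scaling and the thresholds. Median scaling gave 262 higher and 94 lower members (main 85 and 158), a limit of 0.3 on the line differences outside EB gave 47 and 93, and an EB difference of at least 1.5 gave 12 and 40. Leaving out arrays gave 63 to 170 higher and 125 to 251 lower members. Without ES EB replicate 1 there were 157 and 251, and without iPS EB replicate 2 there were 133 and 214. The cause was not tested. With neqc background correction there were 114 and 199 members, 70 and 143 of them shared, and reading the authors' normalized table by its identifiers gave 85 and 158 with 0 shared.

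Of members called from undifferentiated cells to EB, 79 fell, and 30 with median scaling. The other counts of called members stayed within 1.5 times under every alternative run. Leaving out arrays gave 181 to 194 called from undifferentiated cells to EB (105 to 112 higher, 73 to 86 lower), 225 to 231 from EB to CM (29 to 32 and 196 to 200), 169 to 175 from undifferentiated cells to CM (40 to 41 and 128 to 135), and 145 to 152 for fibroblasts (58 to 62 and 86 to 90). With the culture as a replicate block, 109 members rose and 80 fell from undifferentiated cells to EB, 31 rose and 199 fell from EB to CM, and 41 rose and 129 fell from undifferentiated cells to CM. The block changed no call count by over 1.5 times and could not be fitted with the fibroblasts. Of 118 single values printed or named, 16 of the alternative values moved by more than 1 SD, and 1482 did not.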
